A study of Rattus norvegicus with 17 samples.

Results

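Small RNA sequencing of the rat ventral prostate (VP) at postnatal day (PND) 21 compared the male offspring of dams on a low protein diet with those of control dams, and 8 of the 17 libraries of the series belonged to this age by their labels. The animals were Sprague Dawley rats. The 4 CTR libraries were from offspring of dams fed a diet with 17% protein, and the 4 GLLP libraries from offspring of dams fed a diet with 6% protein during gestation and lactation. PND 21 is the day of weaning, so the pups of both groups were sampled when the dams' diet ended. The study took 1 male per litter, and the labels give each library a number within its group and no further detail of the animal. p-values therefore measure the spread between these libraries. The VP is a whole organ of epithelium, stroma, vessels and blood, and in such bulk tissue fewer cells of a type and less RNA per cell cannot be told apart.

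A mature miRNA guides a silencing complex to messenger RNAs, mainly by pairing of its seed, the bases 2 to 8 from its 5′ end. miRNAs with the same seed form a family and can bind overlapping sets of targets. Several miRNAs are often cut from 1 long transcript, so neighbours in the genome can share their supply while having different seeds. Families of miR-200 and miR-205 are known for epithelium, miR-143 and miR-145 for smooth muscle and fibroblasts, and miR-206 for skeletal muscle.

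The mature sequences below are those of the families and single miRNAs on which the comparison turned, with the seed in capitals. The first set is the family with the lowest median in GLLP, which shares the seed ACCCGUA.
miR-99a-5p: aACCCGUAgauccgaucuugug
miR-99b-5p: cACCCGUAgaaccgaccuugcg
miR-100-5p: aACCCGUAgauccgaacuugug
The second set is the miR-200 family, whose 5 members carry 2 seeds that differ at a single base.
miR-200b-3p: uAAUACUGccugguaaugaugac
miR-200c-3p: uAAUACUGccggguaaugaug
miR-429: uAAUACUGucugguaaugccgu
miR-200a-3p: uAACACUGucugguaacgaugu
miR-141-3p: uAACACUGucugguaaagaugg
The third set is the miR-30 family, with 1 seed in all 5 members.
miR-30a-5p: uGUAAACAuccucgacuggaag
miR-30b-5p: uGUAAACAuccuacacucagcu
miR-30c-5p: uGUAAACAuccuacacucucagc
miR-30d-5p: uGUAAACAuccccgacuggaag
miR-30e-5p: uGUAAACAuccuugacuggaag
The miR-181 family had the highest median in GLLP.
miR-181a-5p: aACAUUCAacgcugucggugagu
miR-181b-5p: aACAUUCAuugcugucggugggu
miR-181c-5p: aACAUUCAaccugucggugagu
miR-181d-5p: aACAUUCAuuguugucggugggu
The last set holds single miRNAs with the smallest p-values in either direction, and miR-183-5p, which had no counts.
miR-323-3p: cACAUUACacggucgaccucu
miR-487b-3p: aAUCGUACagggucauccacuu
miR-411-3p: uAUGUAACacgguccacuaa
miR-496-3p: aGUAUUACauggccaaucucc
miR-337-3p: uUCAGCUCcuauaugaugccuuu
miR-206-3p: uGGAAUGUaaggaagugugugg
miR-7a-5p: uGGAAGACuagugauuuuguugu
miR-871-3p: uGACUGGCaccauacuggauaa
miR-3553: cAGUGAAUucuaccagugccaua
miR-183-5p: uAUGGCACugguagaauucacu
The sequences are from RefSeq (GRCr8), except those of miR-99a-5p, miR-200b-3p, miR-200a-3p and miR-429, which are from the study's supplement. miR-100-5p and miR-99a-5p differ by 1 base (A16U, counted from 1 at the 5′ end of miR-100-5p), and a read that is short or carries an error there could be counted for either. miR-183-5p is shown because 22 of the 23 bases of miR-3553 are its exact complement on the other strand.

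The total counts were between 6369707 and 11778621 per library, of which 98.3% to 99.6% fell on rat miRNAs, and 558 to 590 rat miRNAs had at least 1 count. GLLP replicates 2 and 3 and CTR replicate 1 stood apart from the other libraries. GLLP replicate 3 had the fewest miRNA counts, 6262564, and 1.26% of its counts were on snoRNA and snRNA, against 0.271% to 0.547% in the other 7 libraries. In this library 15 miRNAs lay more than 4-fold from the mean of their own group, against 0 to 4 in the others. GLLP replicates 2 and 3 also held the highest levels of skeletal muscle miRNAs, described below. CTR replicate 1 had the fewest miRNAs detected, 558. Without it, 51 miRNAs were at an unadjusted p under 0.05 in the comparison below, against 89 with all libraries and 77 without GLLP replicate 3. The groups did not differ beyond the spread in depth (exact permutation test, p = 0.771), in the number of miRNAs detected (p = 0.171), in the share of the 3 most abundant miRNAs (p = 0.343) or in the share of snoRNA and snRNA (p = 0.429), where 0.0286 is the smallest two-sided p that 4 against 4 libraries allow. A p that misses the threshold does not show that the groups were alike. Values without GLLP replicate 3, or without GLLP replicates 2 and 3, are given where the result rests on them, and the part of these libraries in the results was not tested otherwise.

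Of 439 rat miRNAs tested, 0 passed an adjusted p of 0.05 in edgeR's quasi-likelihood test with Benjamini-Hochberg adjustment, and the smallest adjusted p was 0.102. At an unadjusted p under 0.05 there were 89 miRNAs, or 20.3% of those tested. Of these, 61 (13.9%) were higher in GLLP and 28 (6.38%) lower. DESeq2 called 21 at an adjusted p under 0.05, 15 of them higher and 6 lower, and limma-voom called 0. By the criteria of the study, which ask for an unadjusted p under 0.05, a log2 difference of 0.4 or more in size and a mean normalized count above 20, 83 miRNAs were counted (18.9%), 56 higher (12.8%) and 27 lower (6.15%). The levels of the groups did not overlap for 62 miRNAs (14.1%), with 33 higher in every GLLP library (7.52%) and 29 lower (6.61%). Over all 439, the log2 fold changes had a median of -0.02. Scaling by the total miRNA count instead of TMM moved this median to 0.18 and the split at an unadjusted p under 0.05 to 80 higher and 9 lower, so the balance of the directions depends on the scaling. Levels below are CPM, that is counts scaled to a common library size over rat miRNAs, after TMM scaling, and differences are log2 fold changes of GLLP over CTR with their standard errors (SE).

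The counts in each direction differed between classes of abundance. The share at an unadjusted p under 0.05 was 45% in the class of 10000 CPM or more. It was 8.33%, 14.6%, 26.0% and 17.4% in the classes below, in order of falling level. Over all tested miRNAs it was 20.3%, with 13.9% higher and 6.38% lower. Of the 61 that were higher, 40 lie in 1 window on chromosome 6, described below. The 375 miRNAs outside that window had 21 higher and 27 lower. The classes were not counted without it, so their counts of higher miRNAs include this locus. Among the 20 miRNAs with a mean level of 10000 CPM or more, which took 84.0% ± 1.46 of the miRNA counts in CTR and 83.7% ± 0.963 in GLLP (SD, n = 4 each), 8 were lower and 1 was higher at an unadjusted p under 0.05, and the median log2 fold change was -0.26 (-0.04 under total scaling). Without GLLP replicate 3, 5 miRNAs of this class were at that threshold, against 9. Between 1000 and 10000 CPM, 3 of 36 were lower and 0 higher, and the median was -0.11, which turned to 0.08 under total scaling. Between 100 and 1000 CPM, 9 of 82 were higher and 3 lower, with a median of -0.03 that turned to 0.17. In the class from 10 to 100 CPM, 29 of 146 were higher and 9 lower (median 0.01, 0.19 under total scaling), and in the class under 10 CPM, 22 of 155 were higher and 5 lower (median 0.11, 0.26 under total scaling). Without GLLP replicate 3 the median of the most abundant class was -0.27 and that of the least abundant 0.07.

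**Figure D1:**
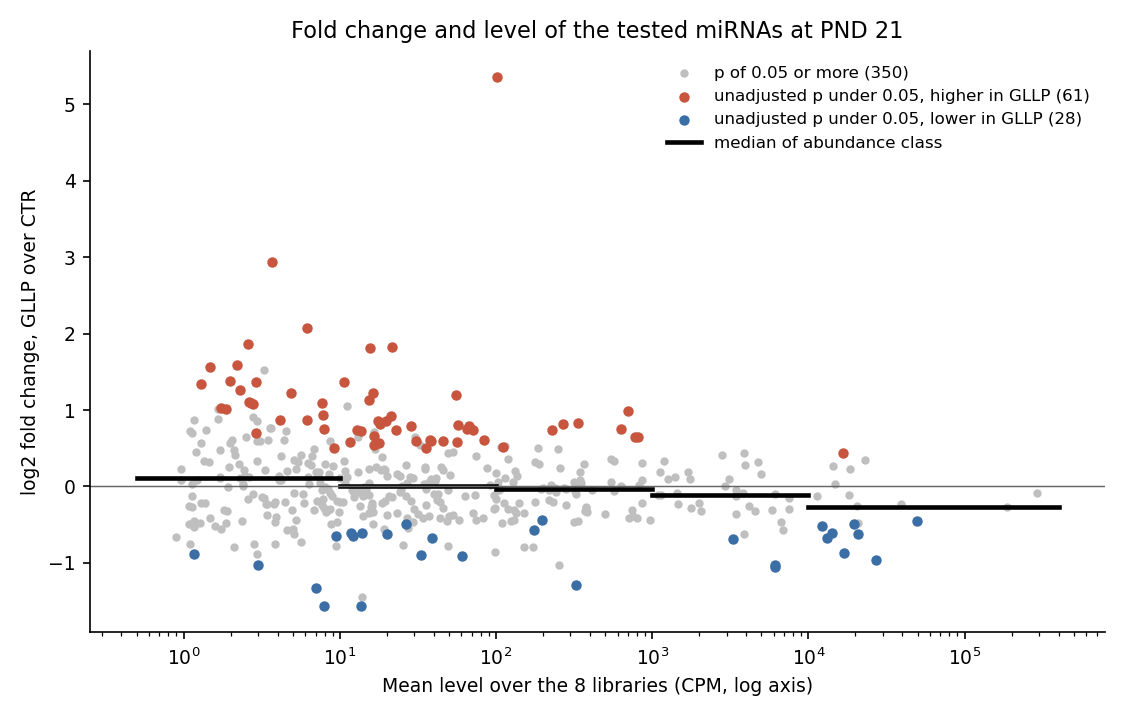
Each point is a tested miRNA, with its mean level over the 8 libraries on a log axis and its log2 fold change of GLLP over CTR on the vertical axis; colour marks the 61 higher and 28 lower at an unadjusted p under 0.05, and black bars are the medians of the abundance classes. The bars run from 0.11 under 10 CPM to -0.26 at 10000 CPM or more.

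The most abundant miRNA was miR-143-3p, a miRNA of smooth muscle and fibroblasts. In replicates 1 to 4 of CTR it stood at 248453, 321288, 382710 and 235154 CPM, and in those of GLLP at 287203, 329255, 157994 and 347572 CPM. The groups overlapped, and its log2 fold change of -0.08 (SE 0.28, unadjusted p = 0.776) turned to 0.18 without GLLP replicate 3, where it was lowest, and to 0.11 under total scaling. miR-10a-5p, which lies in a Hox gene cluster, was at 204892 ± 104059 CPM in CTR and 169884 ± 88148 CPM in GLLP (SD, n = 4). Its widest values, 352547 CPM in CTR replicate 1 and 91063 CPM in GLLP replicate 1, enclosed all others, and without CTR replicate 1 the sign of its difference turned (0.13 against -0.27). miR-10b-5p, its paralogue, had a log2 fold change of 0.34 with all libraries and of -0.40 without GLLP replicate 3, so its direction rested on that library's 60026 CPM.

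Of the 10 most abundant miRNAs, 4 were lower at an unadjusted p under 0.05. miR-148a-3p was at 68066, 60601, 50044 and 49919 CPM in CTR and 43420, 48456, 38144 and 36692 CPM in GLLP. Every GLLP library lay below every CTR library, with a log2 fold change of -0.46 (SE 0.19, unadjusted p = 0.0371, adjusted p = 0.222). Its unadjusted p was no longer under 0.05 under total scaling (-0.25), in the fit of all 17 libraries (-0.37), or without CTR replicate 1 (-0.34), 2 (-0.44) or 3 (-0.48) or GLLP replicate 1 (-0.49), 3 (-0.34) or 4 (-0.41). miR-191a-5p, which lies within the span of Dalrd3, was at 28585, 20221, 22105 and 20785 CPM in CTR and 17797, 16474, 16238 and 14824 CPM in GLLP. These also did not overlap (log2 fold change -0.49, SE 0.18, unadjusted p = 0.0200). The unadjusted p of miR-191a-5p was no longer under 0.05 under total scaling (-0.27) or in the fit of all 17 libraries (-0.41). Nor was it under 0.05 without CTR replicate 1 (-0.35), GLLP replicate 2 (-0.49), GLLP replicate 4 (-0.45) or GLLP replicates 2 and 3 (-0.46). The others were miR-99b-5p and miR-30a-5p, described with their families. miR-21-5p, widely induced in injured and growing tissue, was at 42026 ± 7103 CPM in CTR and 35940 ± 4040 CPM in GLLP (SD, n = 4), with overlapping groups (log2 fold change -0.23, SE 0.19). miR-26a-5p (-0.48, SE 0.24) and miR-27b-3p (-0.26, SE 0.20) were also lower on average, both with overlap and an unadjusted p above 0.05. For miR-26a-5p the unadjusted p was under 0.05 with limma-voom (-0.54), without GLLP replicate 1 (-0.63) and without GLLP replicate 4 (-0.62).

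The tested miRNAs carried 361 distinct seeds, and 15 seeds had at least 3 tested members, 63 miRNAs in all. The median of the members was below 0 in 12 of the 15 families, and in 9 under total scaling. In 8 families every member was below 0, and in 2 every member was above. No member passed an unadjusted p of 0.05 in 7 families. The counts for families below stand beside 13.9% higher and 6.38% lower at that threshold over all tested miRNAs. Groups that did not overlap were 7.52% higher and 6.61% lower over all tested.

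**Figure D2:**
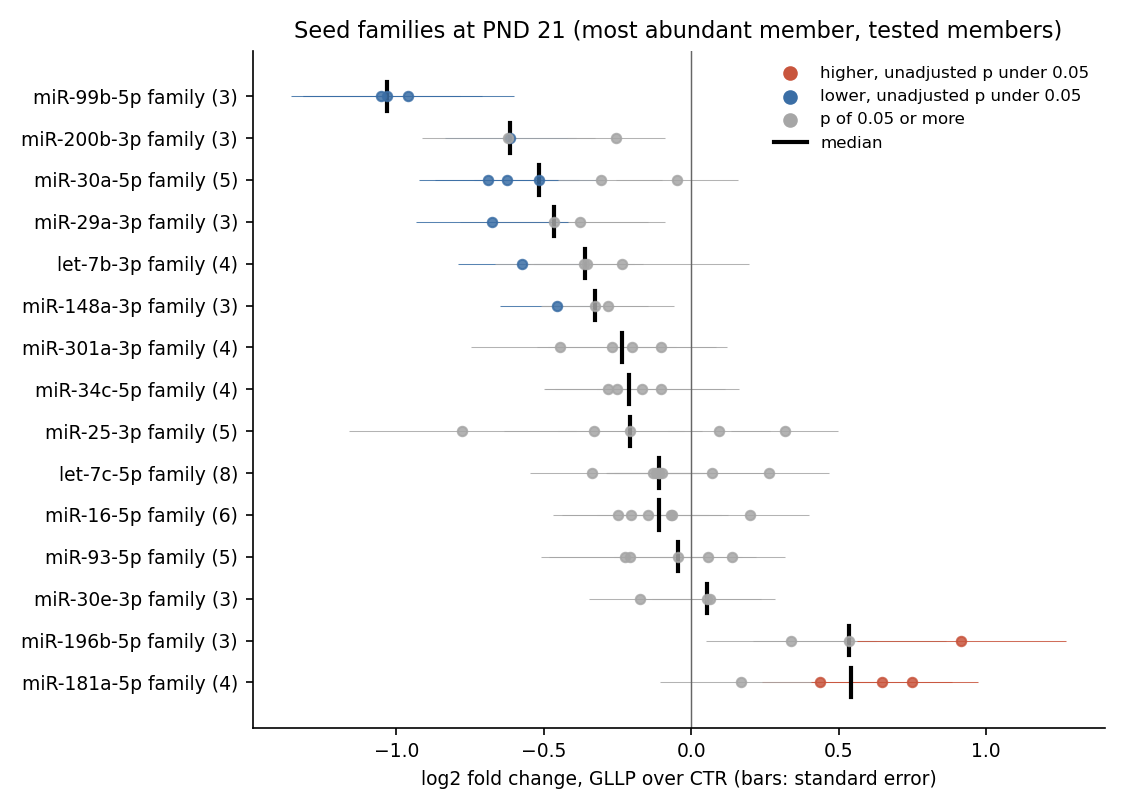
Each row is a family of miRNAs with the same seed, named by its most abundant member with the number of tested members; points are log2 fold changes of GLLP over CTR with their standard errors, and black ticks are medians. Medians run from -1.03 in the miR-99b family to 0.54 in the miR-181a family.

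The seed ACCCGUA had the lowest median, -1.03 (-0.83 without GLLP replicate 3, -0.81 under total scaling), and 3 of its 3 members were lower at an unadjusted p under 0.05. miR-99a-5p was at 10136, 7063, 10066 and 5522 CPM in CTR and 3777, 5302, 2569 and 4181 CPM in GLLP. All GLLP libraries lay below all CTR libraries, the nearest being GLLP replicate 2 and CTR replicate 4, and the log2 fold change was -1.05 (SE 0.27, unadjusted p = 0.00223, adjusted p = 0.102). miR-100-5p was at 11425, 7421, 9408 and 4751 CPM in CTR and 3488, 6600, 2873 and 3168 CPM in GLLP. Here GLLP replicate 2 lay above CTR replicate 4, and the log2 fold change was -1.03 (SE 0.32, unadjusted p = 0.00842). miR-99b-5p, within the span of Spaca6, was at 52122, 27222, 43622 and 19198 CPM in CTR and 15402, 29233, 17158 and 11323 CPM in GLLP. Its mean in GLLP was 0.514 of that in CTR, and GLLP replicate 2 lay above CTR replicates 2 and 4 (log2 fold change -0.96, SE 0.36, unadjusted p = 0.0209). Its unadjusted p was above 0.05 in the fit of all 17 libraries (-0.86) and without CTR replicate 1 (-0.71), CTR replicate 3 (-0.81), GLLP replicate 1 (-0.91) or GLLP replicate 4 (-0.80). Without GLLP replicates 2 and 3 the log2 fold changes were -1.02, -1.28 and -1.38 for miR-99a-5p, miR-100-5p and miR-99b-5p. The miR-10 miRNAs are related to these but have other seeds, and with them the list of 5 had a median of -0.96, with 3 lower at an unadjusted p under 0.05 and 1 with groups that did not overlap. miR-125a-5p, encoded next to miR-99b-5p, was at 1128 ± 194 CPM in CTR and 1049 ± 215 CPM in GLLP (log2 fold change -0.11, SE 0.20). The entry for miR-125b-5p is listed at 0 in all 17 libraries, and so is that for let-7a-5p.

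The miR-200 family, which is known to keep epithelial cells in their epithelial state, had a median of -0.61 (-0.40 under total scaling), with 5 of 5 members below 0. At an unadjusted p under 0.05, 2 were lower, beside 6.38% lower over all tested miRNAs. The groups did not overlap for 4, all lower, beside 6.61% over all tested. The summed level of the family was between 49212 and 62995 CPM in CTR. It was 40118, 39677, 20285 and 42276 CPM in GLLP replicates 1 to 4. GLLP replicate 3 was the lowest by far, and without it the median was -0.30. miR-141-3p was at 25522, 21071, 22126 and 18132 CPM in CTR and 13330, 13367, 4501 and 16386 CPM in GLLP. Every GLLP library was below every CTR library, with a log2 fold change of -0.87 (SE 0.33, unadjusted p = 0.0233) that became -0.52 without GLLP replicate 3 (unadjusted p = 0.00887). miR-200b-3p was at 19916, 16467, 17536 and 14809 CPM in CTR and 13589, 12594, 7178 and 11580 CPM in GLLP. The groups were again apart, with a log2 fold change of -0.61 (SE 0.22, unadjusted p = 0.0178 in edgeR's test across all miRNAs). It was -0.37 without GLLP replicate 3 (unadjusted p = 0.0405), but the unadjusted p was above 0.05 under total scaling (-0.40), in the fit of all 17 libraries (-0.53) and without CTR replicate 1 (-0.52), CTR replicate 3 (-0.57) or GLLP replicates 2 and 3 (-0.42). The levels of miR-200a-3p (-0.46, SE 0.23, unadjusted p = 0.0697) and miR-429 (-0.62, SE 0.29, unadjusted p = 0.0576) did not overlap between the groups, but their edgeR tests missed the threshold. The levels of miR-200c-3p overlapped, at 4508 ± 624 CPM in CTR and 3775 ± 312 CPM in GLLP (SD, n = 4).

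The other miRNAs that mark epithelium did not share this direction. miR-205, abundant in basal epithelium of the prostate, was at 1574 ± 114 CPM in CTR and 1800 ± 212 CPM in GLLP, higher in every GLLP library though with an unadjusted p of 0.247. miR-375-3p, of secretory epithelium, was at 2941 ± 386 and 2947 ± 420 CPM, and miR-203a-3p at 202 ± 5.4 and 199 ± 52.6 CPM (SD, n = 4). The 8 epithelial markers together had a median of -0.36, and 6 of them were below 0.

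In the miR-30 family, which many differentiated epithelia and muscle hold at high levels, 5 of 5 members were below 0, 3 of them at an unadjusted p under 0.05, with a median of -0.52 (-0.30 under total scaling). miR-30e-5p, within the span of Nfyc, was at 5183, 3676, 3168 and 4271 CPM in CTR and 3119, 2321, 1671 and 3007 CPM in GLLP. The groups were separated by a narrow gap, between CTR replicate 3 and GLLP replicate 1 (log2 fold change -0.69, SE 0.24, unadjusted p = 0.0137). Its unadjusted p was above 0.05 under total scaling (-0.48), in the fit of all 17 libraries (-0.61) and without CTR replicate 1 (-0.53) or GLLP replicates 2 and 3 (-0.38). miR-30a-5p was at 28411, 21729, 31832 and 19361 CPM in CTR and 17065, 18974, 10525 and 19167 CPM in GLLP. It was lower in every GLLP library, with a log2 fold change of -0.62 (SE 0.24, unadjusted p = 0.0263). That p was above 0.05 under total scaling (-0.40), with the replicate block (-0.63), in the fit of all 17 libraries (-0.54) and without CTR replicate 1 (-0.55), CTR replicate 3 (-0.47), GLLP replicate 3 (-0.39) or GLLP replicates 2 and 3 (-0.46). miR-30d-5p overlapped slightly (-0.52, SE 0.22, unadjusted p = 0.0368), miR-30b-5p was at -0.30 (SE 0.21) and miR-30c-5p at -0.05 (SE 0.21). GLLP replicate 3 was lowest for miR-30a-5p, miR-30b-5p, miR-30d-5p and miR-30e-5p, and without it the family's median was -0.31, with 1 member at an unadjusted p under 0.05. Without GLLP replicates 2 and 3 there were 0 such members and the median was -0.22. The opposite arms, a family of 3 with another seed, had a median of 0.05.

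The miR-29 family, known for repressing collagens and other matrix genes, had a median of -0.46 (-0.23 under total scaling) with 3 of 3 members below 0. miR-29b-3p was at 60.7, 36.5, 53.8 and 39.8 CPM in CTR and 34.2, 30.6, 18.4 and 36.1 CPM in GLLP. It was the member with groups that did not overlap (log2 fold change -0.67, SE 0.26, unadjusted p = 0.0237). Without GLLP replicates 2 and 3, which were low for all 3 members, the family's median was 0.00. In the miR-148 and miR-152 family, miR-148a-3p was lower as above, and miR-152-3p (-0.33, SE 0.18) and miR-148b-3p (-0.28, SE 0.23) overlapped between the groups, for a median of -0.33 (-0.12 under total scaling). In the most abundant class the eighth miRNA lower at an unadjusted p under 0.05 was miR-22-3p, which belongs to no list and was named after its values were seen, with 16264 CPM in CTR and 10196 CPM in GLLP on average (log2 fold change -0.67, SE 0.29).

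The miR-181 family was the one with most members higher. miRNAs of this family act in lymphocyte and muscle development and in growth signalling. Its summed level was between 18587 and 21622 CPM in CTR and was 22854, 24567, 31022 and 26508 CPM in GLLP replicates 1 to 4, so that the groups did not overlap. Of 4 members, 3 were higher at an unadjusted p under 0.05 and their groups did not overlap, and the median was 0.54 (0.44 without GLLP replicate 3, 0.73 under total scaling). miR-181d-5p was at 453, 445, 497 and 486 CPM in CTR and 586, 828, 1145 and 598 CPM in GLLP. GLLP replicate 3 was highest and CTR varied little, with a log2 fold change of 0.75 (SE 0.22, unadjusted p = 0.00655, adjusted p = 0.133) that was 0.36 without GLLP replicates 2 and 3 (unadjusted p = 0.0454). miR-181b-5p was at 602, 586, 635 and 585 CPM in CTR and 688, 861, 1483 and 738 CPM in GLLP. Its log2 fold change was 0.65 (SE 0.24, unadjusted p = 0.0206), and 0.27 without GLLP replicates 2 and 3 (unadjusted p = 0.112). miR-181a-5p was at 13052, 15705, 14405 and 13798 CPM in CTR and 15750, 18089, 25786 and 17482 CPM in GLLP. It was the only miRNA of the most abundant class to be higher at an unadjusted p under 0.05 (log2 fold change 0.44, SE 0.20, unadjusted p = 0.0476). For miR-181c-5p GLLP replicate 3 was instead the lowest library with 2608 CPM, below all CTR libraries, while the other GLLP libraries were at 5830, 4789 and 7690 CPM. Its log2 fold change was 0.17 (SE 0.27) and became 0.46 without that library (unadjusted p = 0.0217).

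The miR-196 family, encoded among the Hox genes, also had 3 of 3 members above 0 (median 0.54), with 1 at an unadjusted p under 0.05. GLLP replicate 3 held the highest level of each member, and without it the median was 0.13. miR-196a-5p was at 13.9, 13.5, 13.3 and 18.4 CPM in CTR and 19.7, 31.0, 48.4 and 13 CPM in GLLP. GLLP replicate 4 was the lowest of all 8 libraries, although the log2 fold change was 0.92 (SE 0.35, unadjusted p = 0.0252).

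Several families of high level or wide interest had 0 members at an unadjusted p under 0.05. The let-7 family, which holds back growth and pluripotency genes, had 8 tested members with log2 fold changes between -0.33 and 0.26 and a median of -0.11, which turned to 0.07 under total scaling. Its summed level was 55486 ± 5363 CPM in CTR and 54882 ± 2980 CPM in GLLP (SD, n = 4). This sum has no counts for let-7a-5p, listed at 0 in all 17 libraries, and whether its reads were dropped or counted under other let-7 entries is not given in the sources used here. let-7c-5p was at 19015 ± 2383 and 17620 ± 1823 CPM, let-7i-5p at 13134 ± 1561 and 15781 ± 3521 CPM, and let-7f-5p at 11812 ± 1112 and 10862 ± 955 CPM. The miR-17 seed, of a family known for cell proliferation, had 5 members between -0.22 and 0.14 and a median of -0.04 (0.15 under total scaling), with miR-93-5p at 538 ± 61.4 CPM in CTR and 559 ± 58.8 CPM in GLLP. The miR-15 and miR-16 family, which restrains the cell cycle, had 6 members and a median of -0.11 (0.09 under total scaling), with miR-16-5p at 7858 ± 1114 and 7100 ± 602 CPM. The miR-34 and miR-449 family, induced by p53 and in ciliated cells, had 4 tested members and a median of -0.21 (-0.02 under total scaling). The miRNAs of the miR-23, miR-27 and miR-24 clusters had a median of -0.21 over 5 members, which was close to 0 under total scaling (-0.0004). The median was -0.40 over 2 miRNAs of the miR-26 family (-0.18 under total scaling), and miR-221 with miR-222 had -0.07 over 2 (0.13 under total scaling).

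**Figure D3:**
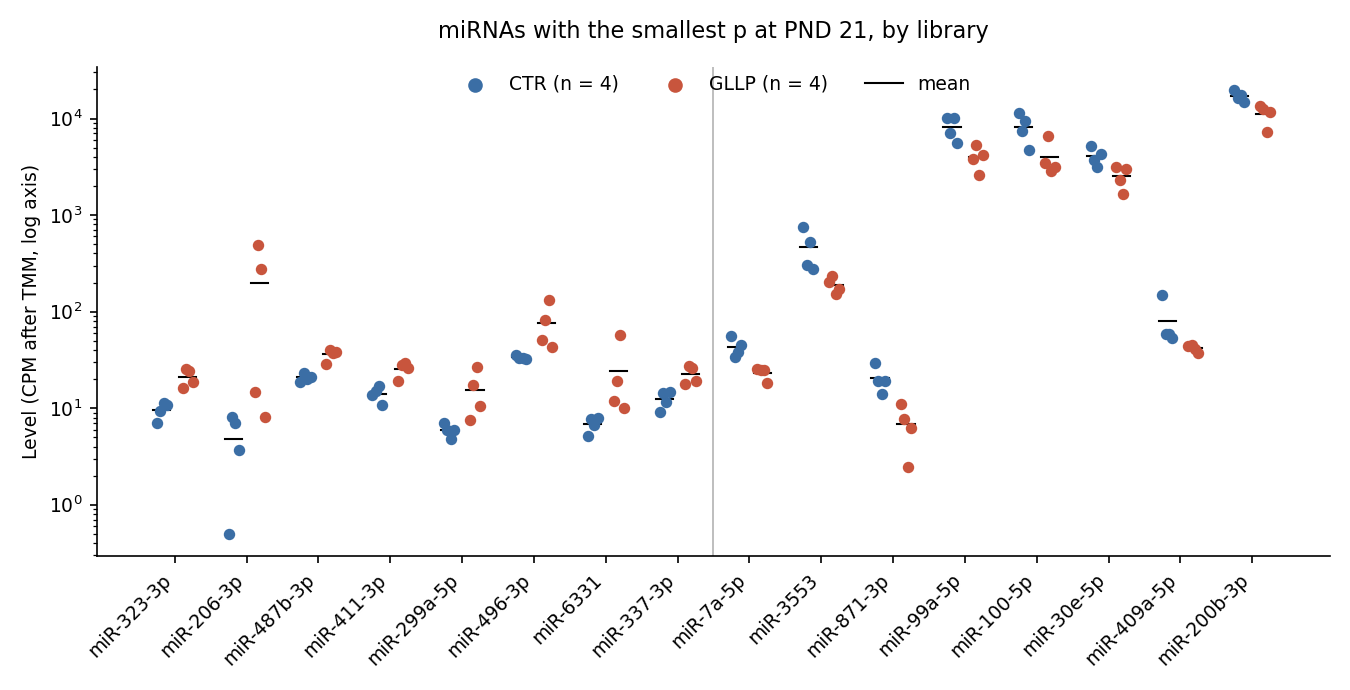
Levels of 16 miRNAs in each library on a log axis in CPM after TMM scaling, with CTR in blue, GLLP in red (n = 4 each) and the mean as a black bar; they are the 8 with the smallest p that were higher and the 8 that were lower in GLLP, among those with a mean of at least 10 CPM. The libraries of the groups overlap for miR-206-3p, where GLLP replicates 2 and 3 stand at 492 and 278 CPM and the others at 14.9 CPM or less, and for miR-100-5p.

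Among miRNAs with a mean of at least 10 CPM, 8 were named as higher in GLLP with the smallest p-values. Of these, 7 were from 1 place in the genome. They lie on rat chromosome 6 between 134321201 and 134575117 (GRCr8, plus strand), in the imprinted region between Dlk1 and Dio3, where many miRNAs are expressed from the maternal chromosome. miR-323-3p (chr6:134546994-134547014) was at 7.02, 9.41, 11.4 and 10.8 CPM in CTR and 16.3, 25.3, 24.4 and 18.8 CPM in GLLP. The lowest GLLP library lay above the highest CTR library, and the log2 fold change of 1.13 (SE 0.24) had the smallest unadjusted p, 0.000619 (adjusted p = 0.102). miR-487b-3p (chr6:134562939-134562960) was at 18.7, 23.4, 20.2 and 21.0 CPM in CTR and 28.8, 40.3, 36.9 and 38.2 CPM in GLLP. The groups were apart by more than the spread within CTR, with a log2 fold change of 0.79 (SE 0.19, unadjusted p = 0.00139). miR-411-3p (chr6:134544639-134544658) was at 13.5, 15.2, 17.1 and 10.8 CPM in CTR and 19.1, 28.1, 29.3 and 26.0 CPM in GLLP, also without overlap (log2 fold change 0.86, SE 0.22, unadjusted p = 0.00271).

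miR-496-3p (chr6:134575097-134575117) was at 35.9, 32.9, 33.4 and 32.4 CPM in CTR and 51.4, 81.1, 133 and 42.6 CPM in GLLP. The CTR libraries were close to each other, GLLP replicate 3 was the highest, and the log2 fold change was 1.19 (SE 0.32, unadjusted p = 0.00341). miR-337-3p (chr6:134321201-134321223) was at 9.16, 14.3, 11.6 and 14.7 CPM in CTR and 17.7, 27.4, 26.1 and 18.9 CPM in GLLP, with no overlap (log2 fold change 0.85, SE 0.24, unadjusted p = 0.00429). miR-299a-5p (log2 fold change 1.37, SE 0.37) and miR-6331 (1.81, SE 0.50) also had no overlap, but their highest GLLP library, replicate 3, was at 26.4 and 56.9 CPM against 7.5 and 10.02 CPM in the lowest. Without GLLP replicates 2 and 3 their log2 fold changes were 0.63 and 0.70, and those of miR-323-3p, miR-487b-3p, miR-411-3p, miR-496-3p and miR-337-3p were 0.88, 0.71, 0.69, 0.52 and 0.58. Each of the 7 kept an unadjusted p under 0.05 in that fit.

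A window from Mir770 to Mir410 between Dlk1 and Dio3 (chr6:134298129-134579828, either strand), called the region below, held 64 tested miRNAs. It was set by the hairpins at its ends and not by the 2 genes. miR-1247-5p (chr6:135105931-135105952, log2 fold change 0.61) lay outside it. Of the 64, 62 had a log2 fold change above 0, with a median of 0.75. At an unadjusted p under 0.05, 40 were higher and 1 lower, so that the region held 40 of the 61 that were higher in the whole comparison. The region was not among the fixed lists, and it holds most of the miRNAs named as higher for their small p. These counts are therefore a description and no independent support. The remaining 375 miRNAs had 21 higher and 27 lower and a median of -0.10. The median of the region over the CTR mean was 0.27, 0.86, 0.96 and 0.66 in GLLP replicates 1 to 4, on the log2 scale, against -0.23 to 0.16 in CTR. Each GLLP library was above each CTR library by this median. It was 0.69 without GLLP replicate 3, with 39 miRNAs at an unadjusted p under 0.05, and 0.51 without GLLP replicates 2 and 3, with 16 of them. miR-409a-5p (chr6:134579198-134579220) was the 1 miRNA of the region lower at an unadjusted p under 0.05. It was at 147, 58.4, 59.1 and 52.9 CPM in CTR and 44.5, 45.5, 41.4 and 37.1 CPM in GLLP. CTR replicate 1 was far above the rest, and the other CTR libraries were also above all GLLP libraries (log2 fold change -0.91, SE 0.32, unadjusted p = 0.0157). It was -0.41 with CTR replicate 1 left out, where the unadjusted p was no longer under 0.05, as also without GLLP replicates 2 and 3 (-0.93) and in the fit of all 17 libraries (-0.84).

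Imprinted loci elsewhere gave a second list. Of 7 tested miRNAs of the Igf2, H19 and Gnas loci, which encode regulators of fetal growth, 7 were above 0, with a median of 0.75 (0.46 without GLLP replicate 3, 0.36 without GLLP replicates 2 and 3), and 3 were higher at an unadjusted p under 0.05. Over all tested miRNAs, 13.9% were higher at that threshold. miR-483-3p, from an intron of Igf2, was at 1.63, 1.5, 3.5 and 2.75 CPM in CTR and 3.46, 13, 17.6 and 5.83 CPM in GLLP. GLLP replicate 1 lay within the CTR range, and the log2 fold change was 2.08 (SE 0.51, unadjusted p = 0.00179, adjusted p = 0.102). miR-483-5p, the other arm of that hairpin (chr1:207247903-207247924), was at 0.502, 1.07, 1.62 and 1.18 CPM in CTR and 1.84, 4.05, 8.02 and 2.38 CPM in GLLP. It was higher in each GLLP library, with GLLP replicates 2 and 3 again the highest (log2 fold change 1.86, SE 0.52, unadjusted p = 0.00420). miR-296-5p, near Gnas, was at 5.85 ± 1.78 CPM in CTR and 9.90 ± 1.95 CPM in GLLP (SD, n = 4, log2 fold change 0.75, SE 0.28, unadjusted p = 0.0206). miR-298-5p (0.65, SE 0.35) overlapped and had its highest level, 67.7 CPM, in GLLP replicate 3. miR-675-3p, cut from H19, was at 2.06 ± 1.15 and 2.49 ± 0.685 CPM and did not differ beyond the spread (0.29, SE 0.40).

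A group of miRNAs on the X chromosome between 150444098 and 150478645 (GRCr8), best known from testis and sperm, was on the other side. Of 15 tested, 13 were below 0, 4 were lower and 0 higher at an unadjusted p under 0.05, 6 had groups that did not overlap, and the median was -0.54 (-0.34 without GLLP replicate 3, with 2 miRNAs left at that threshold). Over all tested miRNAs, 6.38% were lower at that threshold and 6.61% were lower without overlap. This group was not among the fixed lists either, and it holds miR-871-3p, which was named for its small p. By the region's median over the CTR mean, GLLP replicate 3 was at -2.08 and GLLP replicate 4 at 0.01, level with CTR. miR-871-3p (chrX:150478590-150478611) was at 29.5, 19.2, 14 and 19.3 CPM in CTR and 11, 7.66, 2.48 and 6.19 CPM in GLLP. All GLLP libraries were below all CTR libraries, GLLP replicate 3 by the most (log2 fold change -1.56, SE 0.39, unadjusted p = 0.00194, and -1.21 without that library). miR-743b-3p, named after its values were seen as the most abundant of the 15, was at 127, 121, 134 and 127 CPM in CTR and 72.4, 81.3, 19 and 107 CPM in GLLP.

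At a mean of at least 10 CPM, 8 miRNAs were named as lower in GLLP with the smallest p-values. Of these, miR-7a-5p, a regulator of hormone secretion and growth factor signalling, was at 56.4, 33.8, 38.5 and 44.9 CPM in CTR and 25.2, 24.6, 25.1 and 18.2 CPM in GLLP. GLLP replicates 1 to 3 were nearly equal, replicate 4 was lower, and all lay below every CTR library (log2 fold change -0.90, SE 0.22, unadjusted p = 0.00161, adjusted p = 0.102). Without GLLP replicate 3 it was -0.85, and without GLLP replicates 2 and 3 it was -0.96. The entry named miR-3553 (chr4:59756105-59756127, plus strand) was at 748, 302, 522 and 275 CPM in CTR and 204, 231, 153 and 171 CPM in GLLP. It did not overlap between the groups (log2 fold change -1.28, SE 0.31, unadjusted p = 0.00163). The same bases on the minus strand are miR-183-5p, a sensory and epithelial miRNA, whose entry is listed at 0 in all 17 libraries while the entry for its other arm, miR-183-3p, had counts in each. How the counting used strand is not given in the sources used here, so these reads cannot be assigned to 1 of the 2 miRNAs. The same holds for other tested entries whose opposite-strand partners are listed at 0. Among them are miR-3557-5p, miR-3589 and miR-409b, with miR-378a-3p, miR-505-3p and miR-409a-3p as partners. Others are miR-299a-5p and, of the miR-29 family, miR-29a-3p, miR-29b-3p and miR-29c-3p.

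Hairpins allowed a comparison within a locus, since both arms are cut from 1 precursor but are measured by different reads. Of 131 hairpins with both arms tested, 89 had log2 fold changes of the same sign. These are not all separate loci, since 11 hairpins shared a mature arm with another and the 131 held 129 distinct pairs of arms. In 8 hairpins both arms passed an unadjusted p of 0.05, and all of these were higher. They were Mir337, Mir299, Mir412, Mir666, Mir379, Mir433 and Mir370 of the Dlk1 to Dio3 region, and Mir483. Of the 131, 0 had both arms lower at that threshold. Over all tested miRNAs, 13.9% were higher and 6.38% lower, so few hairpins with both arms lower would be found even if the arms were unrelated. Most of the 8 lie in the region described above and both arms come from the same 8 libraries, so these counts are no independent support. Entries with no RefSeq position were not in this count, among them miR-200b-3p, whose other arm miR-200b-5p was also lower (log2 fold change -0.44, unadjusted p = 0.0477). Across hairpins the Pearson correlation of the arms was 0.522, a description over loci that share the same 8 libraries.

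Markers of cell types were summed in each library to describe the tissue that was sampled. Those of smooth muscle and stroma were the most abundant, at 243413 to 389875 CPM in CTR and 171408 to 357860 CPM in GLLP, with 0 of 7 at an unadjusted p under 0.05 and a median of 0.13. Their sum was lowest in GLLP replicate 3. The epithelial sum was 53853 to 67143 CPM in CTR and 44706, 44417, 25242 and 47775 CPM in GLLP replicates 1 to 4. It was lower in every GLLP library, and the miR-200 family made up most of this sum. Endothelial markers, miR-126a on both arms, summed to 4053 to 5287 CPM in CTR and 1400 to 5956 CPM in GLLP, lowest in GLLP replicate 3 and highest in GLLP replicate 4. The 4 red blood cell markers had a median of -0.95. Of these, 1 was lower and 0 higher at an unadjusted p under 0.05, beside 6.38% lower over all tested miRNAs. miR-144-5p was that marker, at 7.40, 7.27, 17.5 and 8.17 CPM in CTR and 2.72, 2.73, 2.92 and 7.74 CPM in GLLP, where GLLP replicate 4 lay among the CTR libraries (log2 fold change -1.33, SE 0.43). The most abundant of them, miR-486, was at 8234 ± 3150 and 5573 ± 2144 CPM, with overlap. White blood cell markers had 0 of 5 at that threshold (median -0.13, 0.07 under total scaling), and of 4 neuronal markers 2 were tested, with a median of 0.15. The liver marker miR-122-5p was below the filter, at 3.10 CPM or less in each library.

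**Figure D4:**
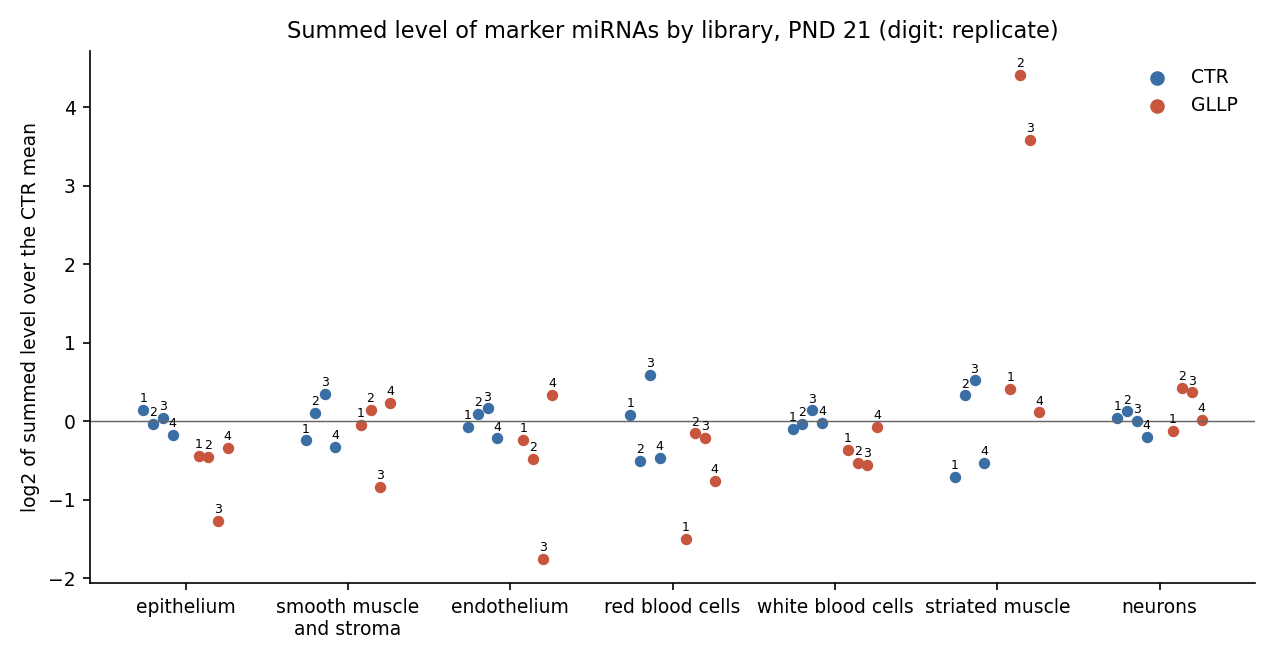
Summed levels of marker miRNAs of 7 cell types in each library, as the log2 of the ratio to the CTR mean; blue points are CTR, red points GLLP, and the digit is the replicate number. GLLP replicates 2 and 3 stand apart for striated muscle, with sums of 526 and 297 CPM against 15.2 to 35.5 CPM in CTR. GLLP replicate 3 is lowest for epithelium, smooth muscle and stroma, endothelium and white blood cells.

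The striated muscle markers were high in single libraries. miR-206-3p (chr9:30590747-30590768), a miRNA of skeletal muscle, was at 0.502, 8.13, 7 and 3.69 CPM in CTR and 14.9, 492, 278 and 8.10 CPM in GLLP. GLLP replicates 2 and 3 were far above all others, and GLLP replicate 4 was within the CTR range. Its log2 fold change of 5.36 (SE 1.26, unadjusted p = 0.00134, adjusted p = 0.102) was 1.30 without these 2 libraries (unadjusted p = 0.0775). miR-1-3p, shared by skeletal and heart muscle, had 6, 9, 6 and 8 counts in CTR and 11, 85, 18 and 7 counts in GLLP, and miR-133b-3p had 0, 2, 0 and 0 counts and 2, 30, 13 and 0 counts. Both were below the filter on low counts and were highest in the same GLLP libraries. The entry for miR-133a-3p is listed at 0 in each of the 8 libraries. miR-208b-3p was at 1.65 ± 0.514 CPM in CTR and 3.57 ± 1.06 CPM in GLLP, higher in each GLLP library (log2 fold change 1.11, SE 0.34, unadjusted p = 0.00726), whereas miR-499-5p was at 17.4 ± 6.59 and 14.9 ± 4.24 CPM, with overlap. Without GLLP replicates 2 and 3, 40 miRNAs were left at an unadjusted p under 0.05 in the whole comparison (24 higher and 16 lower), against 89 with all libraries.

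At PND 540 the same diets were compared in 9 other libraries, 5 CTR and 4 GLLP. In a fit of all 17 libraries, 0 of 467 miRNAs in edgeR and 0 of 680 in DESeq2 had a difference between the groups that changed with age at an adjusted p under 0.05. At an unadjusted p under 0.05 there were 32 in edgeR (6.85%), and this count was 19 under total scaling, 16 without GLLP replicate 3 and 19 to 26 with another library of PND 21 left out. In the same fit 32 miRNAs (6.85%) differed between the groups at PND 540 at an unadjusted p under 0.05. Across the tested miRNAs the Pearson correlation of the log2 fold changes at PND 21 and PND 540 was -0.042, a description over miRNAs that are not independent. In the medians that follow, values at PND 21 are from the fit of its 8 libraries, and values at PND 540 are from the fit of all 17. The miR-200 family had a median of -0.61 at PND 21 and -0.20 at PND 540, the miR-30 family -0.52 and -0.22, and the miR-10, miR-99 and miR-100 list -0.96 and -0.53. The miR-181 family was at 0.54 and 0.26. The 64 miRNAs from Mir770 to Mir410 between Dlk1 and Dio3 were at 0.75 and -0.56. The miR-196 family was at 0.54 and -0.77, the group on the X chromosome at -0.54 and 0.45, and the Igf2, H19 and Gnas list at 0.75 and -0.07. All miRNAs tested at PND 21 had medians of -0.02 and -0.25. In 1 fit of all 17 libraries their median at PND 21 was 0.07. The medians of miR-200 and miR-30 at PND 540 were thus not below that of all miRNAs.

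**Figure D5:**
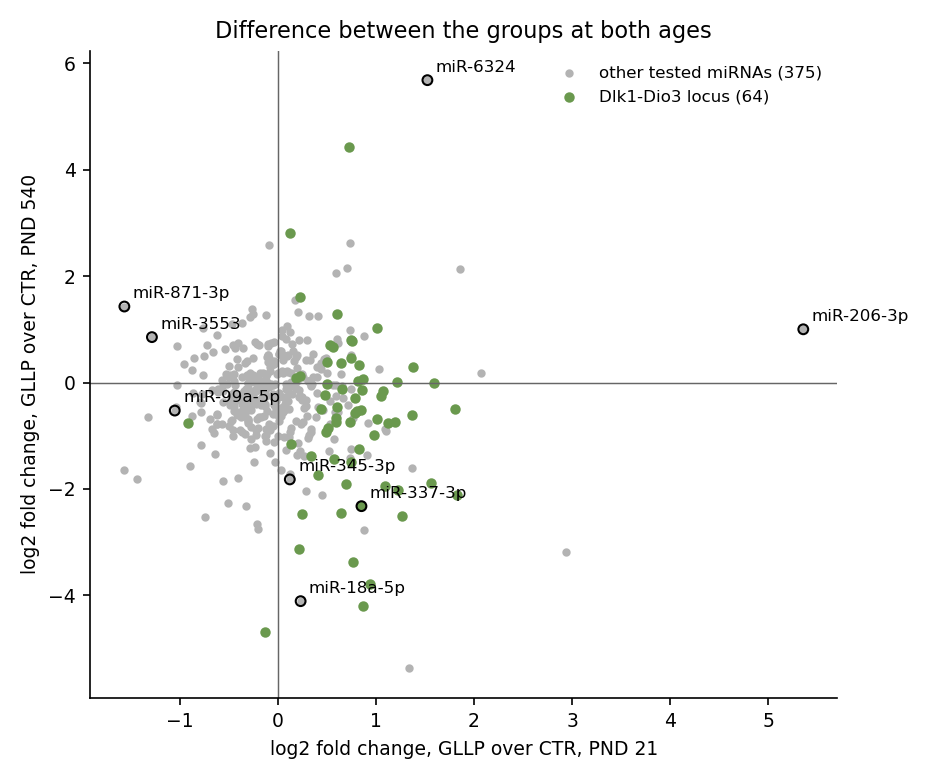
Each point is a miRNA tested at PND 21, with its log2 fold change of GLLP over CTR at PND 21 on the horizontal axis and at PND 540 on the vertical axis, the latter from the fit of all 17 libraries. Green marks the 64 miRNAs from Mir770 to Mir410 between Dlk1 and Dio3. Most green points lie right of 0, with medians of 0.75 at PND 21 and -0.56 at PND 540.

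Of the 3 miRNAs that results at PND 540 had named, none differed between the groups at PND 21 beyond the spread with all libraries. miR-18a-5p, of the miR-17~92 cluster, was at 31.5, 31.0, 36.3 and 30.2 CPM in CTR and 30.9, 26.6, 50.5 and 43.9 CPM in GLLP. Its libraries overlapped, with a log2 fold change of 0.23 (SE 0.23, exact permutation test, p = 0.4). miR-345-3p was at 32.9, 20.1, 19.7 and 34.6 CPM in CTR and 27.2, 21.8, 53.5 and 14.6 CPM in GLLP, and its log2 fold change of 0.12 (SE 0.37, exact permutation test, p = 0.971) turned to -0.25 without GLLP replicate 3. miR-6324, within the span of Brwd1, had 3, 4, 20 and 39 counts in CTR and 89, 0, 43 and 56 counts in GLLP. GLLP replicate 2 had none and the other GLLP libraries were above every CTR library, with a log2 fold change of 1.53 (SE 0.92, exact permutation test, p = 0.571). It was 1.97 without GLLP replicate 2 and 2 without GLLP replicates 2 and 3, both at an unadjusted p under 0.05 in edgeR.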

How the data were processed

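The authors sequenced small RNA (TruSeq Small RNA), trimmed adapters, filtered at a Phred score of 20, aligned to Rnor_6.0 with STAR on OASIS and deposited raw counts of reads per small RNA species, 1 library per file. Versions and the strand setting are not given in the sources used here. From the 761 rat miRNA entries, with joined names kept as 1, 439 passed edgeR's default filter. They were scaled by TMM over rat miRNAs and tested with edgeR 4.0.16 (quasi-likelihood, Benjamini-Hochberg, no covariates; R 4.3.3), with a prior count of 2 for log2 levels and exact two-sided permutation tests for single values. The script was tested on simulated data. DESeq2 1.42.0 and limma 3.58.1 served as alternatives, and matplotlib 3.10.9 drew the figures. No molecular identifiers were used, and counts cover PCR copies. The lowest chi-square per degree of freedom between libraries of a group was 443, so none was a duplicate. Deviations of same-numbered libraries from their group means had correlations from -0.211 to 0.261, so the numbers were not treated as pairs.

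The miRNAs named were the 10 most abundant, the 8 higher and 8 lower with the smallest p at a mean of at least 10 CPM, 3 named at PND 540, and members of fixed lists. The windows on chromosome 6 and on the X chromosome were not among these lists. Members, lists and tests were chosen with earlier results of these data known. Seeds were matched from RefSeq (GRCr8) for 404 miRNAs and from the study's supplement for 35. Positions are GRCr8, another build than the one used for alignment. The PND 540 files were used for the comparison of the ages.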

Additional observations from a re-analysis of the deposited data

Results flagged for a closer look

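Among 114 groups of 4 libraries, 8 held 1 library whose gap to the nearest other, as a share of the group's range, passed Dixon's critical value, where about 1 in 20 groups, or 5.7, would do so by chance. GLLP replicate 3 accounts for 4 of them. It was high in its share of snoRNA and snRNA (0.891 of the range), and it was lowest for the count of detected miRNAs (0.857), for the summed level of the miR-200 family (0.914) and for the summed level of the epithelial markers (0.886), which share 5 miRNAs. CTR replicate 1 was high for miR-21-5p (0.914) and for miR-409a-5p (0.891). GLLP replicate 4 was low for miR-7a-5p (0.919), and GLLP replicate 2, with 0 counts, was low for miR-6324 (0.983). The causes were not tested.

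For 9 of the named miRNAs the diet groups differed otherwise at PND 540 than at PND 21 at an unadjusted p under 0.05. The fit was that of all 17 libraries, with no adjusted p under 0.05 in edgeR's quasi-likelihood test. Over all tested miRNAs, 32 of 467 (6.85%) had such an unadjusted p. These 9 had been named for a small p at PND 21 or for results at PND 540, so their change with age is no independent result. The change in log2 fold change was negative for miR-323-3p (-1.98, unadjusted p = 0.0440), miR-206-3p (-4.53, unadjusted p = 0.0211), miR-496-3p (-2.03, unadjusted p = 0.0480), miR-337-3p (-3.26, unadjusted p = 0.0251), miR-18a-5p (-4.41, unadjusted p = 0.0170) and miR-345-3p (-2.02, unadjusted p = 0.0411). It was positive for miR-3553 (2.06, unadjusted p = 0.00179), miR-871-3p (2.96, unadjusted p = 0.0335) and miR-6324 (4.10, unadjusted p = 0.0207). For miR-206-3p the value rests on GLLP replicates 2 and 3 of PND 21.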

How the results depend on the processing

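With 19 alternatives, the 16 miRNAs named for their p kept their sign in 304 of 304 values and an unadjusted p under 0.05 in 282. These 16 were chosen by p in the same libraries that the alternatives refit, so these counts are no independent support. The 89 miRNAs at an unadjusted p under 0.05 became 8 in 1 fit of all 17 libraries, whose spread includes the older animals, and ranged from 51 (without CTR replicate 1) to 116 (without GLLP replicate 4) when a library was left out. By the criteria of the study the 83 became 6 in the fit of all 17 libraries and ranged from 49 to 112. Adjusted calls ranged from 0 to 2 in those fits, the 2 being miR-206-3p and miR-33-5p without GLLP replicate 4, and were 21 with DESeq2. With GLLP replicates 2 and 3 both left out, an alternative chosen after seeing the data, 40 and 37 were left. With the replicate block, 80 were at an unadjusted p under 0.05 and 72 met the criteria, and no adjusted call appeared. The sign of miR-143-3p turned under total scaling (0.11), in the fit of all 17 libraries (0.0113), without CTR replicate 3 (0.10), without GLLP replicate 3 (0.18) and without GLLP replicates 2 and 3 (0.12). That of miR-345-3p turned with limma-voom (-0.00916), without CTR replicate 2 (-0.00547), without GLLP replicate 3 (-0.25) and without GLLP replicates 2 and 3 (-0.31), that of miR-10a-5p without CTR replicate 1 (0.13), and that of miR-10b-5p without GLLP replicate 3 (-0.40) and without GLLP replicates 2 and 3 (-1.05). With 1 library left out, the log2 fold changes ranged from -0.20 to 0.18 for miR-143-3p, from -0.25 to 0.34 for miR-345-3p, from -0.57 to 0.13 for miR-10a-5p and from -0.40 to 0.87 for miR-10b-5p, and the mean depth of GLLP minus CTR, -515117 counts, from -1301160 to 518386. The causes were not tested. The 155 miRNAs under 10 CPM rest on few counts.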
